A study of Mus musculus with 2148 samples.

Results

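Cortical thymic epithelial cells (cTEC) of adult wild-type (WT) C57BL/6 mice were set against adult medullary thymic epithelial cells with low surface MHC class II (mTEClo), cell by cell, by RamDA-seq. This method copies total RNA along its whole length, priming at random sites and at poly(A) tails, so that transcripts without a poly(A) tail are read along with mRNA. The members were chosen by their labels and not by any measured value. They comprised all 77 adult WT cTEC, 3.89% of the cells of the series, and all adult WT mTEClo, 18.03% of them. The cTEC had been sorted as DAPI-CD45-EpCAM+Ly51+ cells from male mice aged 6 weeks and all belonged to experimental batch 6. The mTEClo had been sorted as DAPI-CD45-EpCAM+Ly51- cells with low MHC class II from male mice of 3 ages. Experimental batch 2 held 66 mTEClo of 4 weeks, batch 5 held 74 of 5 weeks, and batches 32, 33 and 34 held 77, 68 and 72 of 8 weeks. Newborn WT cells of the same strain, 1 day old and of unknown sex, served as a second comparison. Experimental batches 16 to 20 each contained both newborn sorts, with 37, 24, 22, 30 and 26 cTEC and 11, 30, 25, 29 and 29 mTEClo. A test over pools below also used mTEC with high MHC class II (mTEChi) of adult WT, newborn WT and adult Aire-knockout mice. It used adult Aire-knockout mTEClo as well. Mice were not numbered in the labels, so that several mice may stand behind a batch and batches may share mice.

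The cTEC side was therefore 1 batch. The sort, the batch and the age of the adult cTEC cannot be told apart. The p-values of the tests below measure only the spread between the sums fitted. Reads were summed over the cells of each batch and are given as CPM, reads per 1000000 reads on genes. The median cell had 862537 deduplicated reads in the cTEC batch and between 516401.5 and 801070 in the 5 mTEClo batches, and the median number of genes per cell was 13486 in cTEC against 11323 to 12747. Counting took no account of strand, and deduplicated reads are not independent molecules, so intervals on shares of cells cover counting error only.

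The thymic cortex and medulla are built by epithelial cells of different kinds. cTEC attract lymphoid progenitors, commit them to the T lineage through Notch, and present self-peptides made by a thymus-specific proteasome and by dedicated proteases, on which immature T cells are positively selected. mTEC express tissue-restricted antigens, in part under the regulator Aire, and take part in deleting self-reactive T cells. The mTEClo gate is known to be a mixture, in which immature keratin 14-positive cells stand beside cells that have passed through the Aire stage and resemble tuft, neuroendocrine, microfold or skin cells.

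The labels were first checked against markers. Psmb11, the cortex-specific catalytic proteasome subunit β5t, had 732.4 CPM in the cTEC batch and 5.52, 0.667, 16.8, 10.8 and 14.3 CPM in mTEClo batches 2, 5, 32, 33 and 34. Ccl25, the chemokine that draws CCR9-positive progenitors, had 642.6 CPM against 38.6 to 95.8 CPM, and Ly75, the endocytic receptor DEC-205, had 1452.2 CPM against 45.2 to 171.9 CPM. These 3 markers separated the sorts without overlap. Krt14, a keratin of immature medullary cells, had 97.004 CPM in cTEC and 119.8, 176.5, 752.8, 599.9 and 819.9 CPM in mTEClo, so the cTEC batch lay below every mTEClo batch but near the youngest one. Of the 8 markers of the cTEC list, 7 were at least 2-fold above the highest mTEClo batch, and their summed level was 6709 CPM against 325.5 to 841.8 CPM.

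Single cells showed that neither gate was uniform. At least 100 CPM of Psmb11 were found in 46 of 77 cTEC-gate cells (59.7%, exact binomial 95% interval 47.9 to 70.8) and in 8 mTEClo cells (2.24%, 0.972 to 4.37). All 77 cTEC-gate cells carried at least 1 Psmb11 read, as did 84.4% of them after every cell was thinned to 200000 reads, against 10.9% of mTEClo. Clustering of all adult cells of both gates gave 12 clusters. The cTEC gate put 30 cells into cluster 5, which was left unnamed because thymocyte genes were among its leading genes, 17 into a cTEC-like cluster, 10 into cluster 8, 7 into a keratinocyte-like, 6 into a microfold-like and 1 into a tuft-like cluster, and 5 and 1 into clusters 0 and 4, which were unnamed. The cTEC-gate cells of cluster 5 and of the cTEC-like cluster had 1410.9 and 509.2 CPM of Psmb11 and together numbered 47 of the 77. The keratinocyte-like and microfold-like cells of the gate carried the sort marker, with 680.8 and 397.4 CPM of Enpep (the Ly51 antigen), yet had 8.10 and 9.40 CPM of Psmb11. The 7 cTEC-gate cells of the keratinocyte-like cluster had summed levels of 325.6 CPM of keratinocyte, 1532.5 CPM of microfold and 1217.7 CPM of tuft markers. Its mTEClo cells had 1361.9, 276.2 and 247.6 CPM, so the name describes those better.

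The mTEClo batches fell into a pair that differed from the rest. Tuft-like cells, which resemble chemosensory cells of the gut and airway, made up 54.5% of batch 2 and 52.7% of batch 5 but 2.60%, 4.41% and 6.94% of batches 32, 33 and 34. The summed level of 12 tuft markers was 6784 and 6058 CPM in batches 2 and 5, 621.4 to 936.6 CPM in batches 32 to 34, and 301.99 CPM in cTEC. Age and batch changed together here too, and a gene had to differ from both kinds of mTEClo batch to be counted below. Because clusters were drawn from the same reads, their sizes and leading genes serve as a description only.

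**Figure D1:**
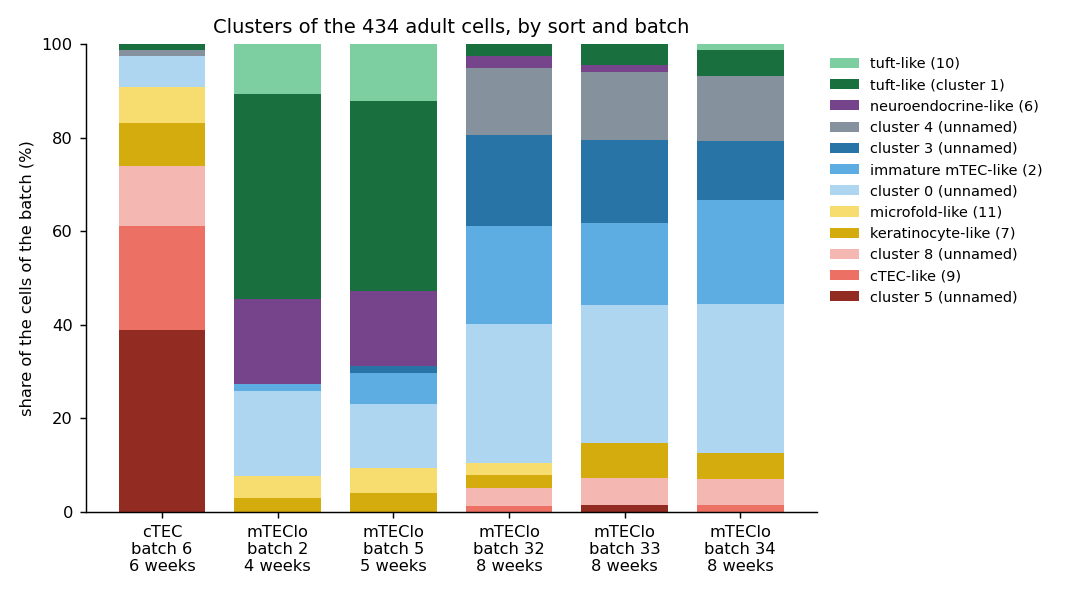
Share of cells (%, y axis) in each of 12 clusters for the adult cTEC batch and the 5 adult mTEClo batches (x axis, with age in weeks). Cluster 5 and the cTEC-like cluster fill most of the cTEC bar, while the tuft-like clusters fill over 50% of the bars of mTEClo batches 2 and 5.

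RNA of another cell type accompanied the cTEC gate. Of the 13 genes of the thymocyte list, 8 of the 10 with at least 5 CPM were at least 2-fold above all mTEClo batches, and the summed level of the list was 446.7 CPM in cTEC against 23.99 to 88.4 CPM. Rag1, the recombinase that assembles antigen receptors, had 184.1 CPM in cTEC and 0, 0.5502, 1.02, 0.636 and 0.190 CPM in the mTEClo batches. Cd8a and Cd4, the coreceptors that mark double-positive thymocytes, had 35.8 and 32.5 CPM against at most 0.952 and 1.58 CPM. Ptprc, which encodes the CD45 antigen used to gate lymphocytes out, did not stand apart, with 61.7 CPM against 7.05 to 69.4 CPM.

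The thymocyte reads were concentrated in few cells. At least 4 of the 10 thymocyte genes had a read in 13 of the 77 cTEC-gate cells, 10 of them in cluster 5. These cells were also strongly cortical, since 12 of the 13 had at least 100 CPM of Psmb11 and their median Psmb11 was 1508.2 CPM, against 232.55 CPM in the other 64 cells. They also had the deeper libraries, with a median of 1041824 reads and 15118 genes against 802426 reads and 13267 genes, and the part of depth in this split was not tested. Without the 30 cells of cluster 5, Rag1 was the only one of the 8 thymocyte genes still at least 2-fold above every mTEClo batch. The part of thymocyte RNA in the cortical results was not tested, but the same cells were left out in turn and the values without them are given beside the results. Endothelial and myeloid and B cell markers had low summed levels of 14.96 and 32.8 CPM in cTEC, within the 2.57 to 18.3 and 22.5 to 79.6 CPM of the mTEClo batches, with Cdh5, Adgre1, Ms4a1 and Siglech at 0. The only endothelial gene with at least 5 CPM, Pecam1, was at least 2-fold above all mTEClo batches, with 9.65 CPM against 0.656 to 4.03 CPM, and dropped under 5 CPM without cluster 5. Mesenchymal markers summed to 118.7 CPM against 54.8 to 243.4 CPM, most of it from Dcn at 107.8 CPM, while Col1a1 and Pdgfra had 3 reads each.

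With 1 cTEC batch, a gene was called higher when its CPM in the cTEC batch was at least 2-fold above the highest of the 5 mTEClo batches, and lower when it was at least 2-fold below the lowest, with at least 5 CPM on the higher side. This is a rule of size and consistency, not a test. It called 5.22% of 14205 genes higher and 4.02% lower. The median log2 fold over those genes, cTEC over the mean of the mTEClo batches, was -0.10. Of the genes in the 17 pathway lists, 23 (16.7%) were called higher and 5 (3.62%) lower. These 2 percents also count members under 5 CPM, which could not be called, whereas the 14205 genes all had at least 5 CPM. Those called higher came mostly from the cortical lists and the cell cycle, and the lists had been put together with earlier results of these data known.

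**Figure D2:**
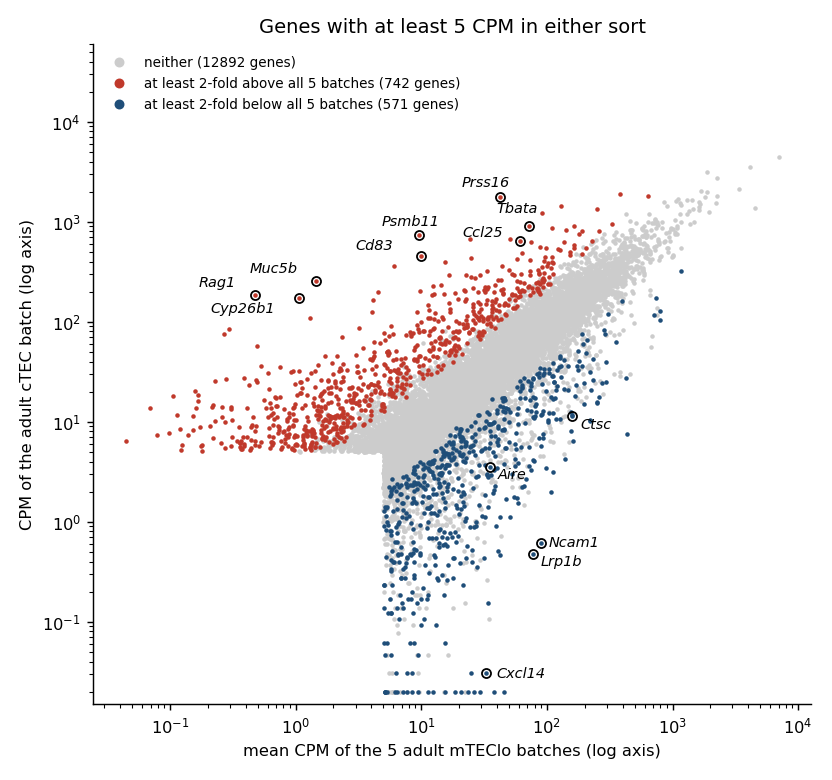
CPM of the adult cTEC batch (y axis, log) against the mean CPM of the 5 adult mTEClo batches (x axis, log) for genes with at least 5 CPM in either, values under 0.02 CPM being drawn at 0.02. Red points are the 5.22% of genes at least 2-fold above all 5 mTEClo batches, blue points the 4.02% at least 2-fold below all 5, and circles mark genes described in the text.

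Among the 17 pathway lists, cortical antigen processing had the highest median log2 fold, 5.39 over 3 genes. Psmb11 (ENSMUSG00000072423, GRCm38 chromosome 14, 54621433 to 54629556) was 43.7-fold above the highest mTEClo batch, with a log2 fold of 6.25 over their mean of 9.60 ± 6.54 CPM (SD, n = 5 batches). Prss16 (ENSMUSG00000006179, chromosome 13, 22002173 to 22009742), the thymus-specific serine protease that makes peptides for MHC class II, had 1765.6 CPM in cTEC and 18.9, 26.3, 40.9, 47.7 and 77.3 CPM in the mTEClo batches. Its lead over the highest of these was 22.8-fold, with a log2 fold of 5.39. The third member, the lysosomal protease Ctsl, had 1185.4 CPM against 164.9, 185.2, 599.1, 593.4 and 577.6 CPM. It exceeded every mTEClo batch, by 1.98-fold over the highest, which fell just short of the rule. With TMM scaling, with the mean of per-cell CPM and after thinning to 200000 reads, Ctsl was called higher.

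The calls of Psmb11 and Prss16 held in fewer cells. Without cluster 5 the log2 fold of Psmb11 was 4.54 and the log2 fold of Prss16 was 4.05. In the 17 cells of the cTEC-like cluster alone the log2 fold of Psmb11 was 5.73. Psmb11 was among the markers that named that cluster, so this value does not bear on the calls. No single cell decided them, since the cell with most reads supplied 5.11% of the Psmb11 reads and 3.64% of those of Prss16.

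Psmb11 is a known target of Foxn1, the master regulator of thymic epithelium, whose recognition sequence has the core GACGC. The start-site windows of Psmb11 and Ccl25 are shown because both genes were higher in cTEC and each has a window that holds that core. Each runs 5′ to 3′ on the gene's strand from 250 bases before to 50 bases after the annotated start (RefSeq, GRCm38.p6), with GACGC, or GCGTC where it lies on the other strand, in capitals. The windows are chr14:54625060-54625359 on the plus strand for Psmb11 and chr8:4324960-4325259, also on the plus strand, for Ccl25. A second RefSeq window of Ccl25, chr8:4349338-4349637, holds no match and is not shown.
Psmb11: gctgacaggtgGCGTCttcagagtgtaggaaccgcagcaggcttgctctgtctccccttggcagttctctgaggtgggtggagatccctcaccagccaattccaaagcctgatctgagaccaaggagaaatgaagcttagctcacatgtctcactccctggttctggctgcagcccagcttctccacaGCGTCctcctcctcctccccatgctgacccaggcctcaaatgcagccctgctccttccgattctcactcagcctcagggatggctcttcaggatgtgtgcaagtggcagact
Ccl25: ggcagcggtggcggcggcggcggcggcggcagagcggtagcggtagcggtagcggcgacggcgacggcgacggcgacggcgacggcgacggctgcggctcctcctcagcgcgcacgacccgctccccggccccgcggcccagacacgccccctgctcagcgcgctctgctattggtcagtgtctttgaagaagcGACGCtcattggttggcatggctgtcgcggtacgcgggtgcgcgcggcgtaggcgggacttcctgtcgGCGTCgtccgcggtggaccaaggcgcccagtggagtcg
Its first base lay at positions -239 and -62 relative to the start of Psmb11 and at -56 and 12 relative to that of Ccl25. Of the 13 members called higher in the cortical and transcription factor lists, 11 had a window in the RefSeq table, those of Prss16 and Cd83 not being used here. A gene was counted if any of its windows held the core, which was so for 6 of the 11 (54.5%), namely Psmb11, Ccl25, Enpep, Cxcl12, Kitl and Pax1. Counted in the same way it was found in 49.1% of genes with at least 5 CPM, in 47.96% of genes called higher and in 28.1% of genes called lower, and by single windows in 27.2% of all 32851. The cortical members thus carried it about as often as expressed genes in general, and a match is a description of letters and not a binding site.

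Of the 6 genes that support the T lineage, 4 were called higher in cTEC. Dll4, the Notch ligand that commits progenitors to the T lineage, had 203.3 CPM in cTEC and 17.8, 14.4, 4.66, 6.19 and 5.69 CPM in the mTEClo batches, an 11.4-fold lead over the highest. Cxcl12, the chemokine that retains CXCR4-positive progenitors in the cortex, had 1237.3 CPM against 21.8, 34.2, 139.3, 138.3 and 125.3 CPM. Kitl, the ligand of the KIT receptor on early progenitors, had 161.6 CPM against 10.1 to 35.5 CPM. The log2 folds of Dll4, Cxcl12, Ccl25 and Kitl over the mTEClo mean were 4.38, 3.75, 3.39 and 2.86. The mTEClo order of Dll4 was opposite to that of Cxcl12, as Dll4 was highest in batches 2 and 5 and Cxcl12 in batches 32 to 34, and the cTEC batch exceeded both.

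The other cytokines of this list did not separate the sorts. Il7, which sustains thymocyte survival, had 18672 reads in cTEC, a level inside the mTEClo range of 114.4 to 454.6 CPM. Flt3l, the ligand of FLT3, had 35.9 CPM, above but close to the 14.1 to 29.3 CPM of mTEClo. Without the cells of cluster 5 the log2 fold of Dll4 was 2.73, the log2 fold of Cxcl12 was 2.77 and the log2 fold of Ccl25 was 2.03, and all 4 genes were still called higher.

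**Figure D3:**
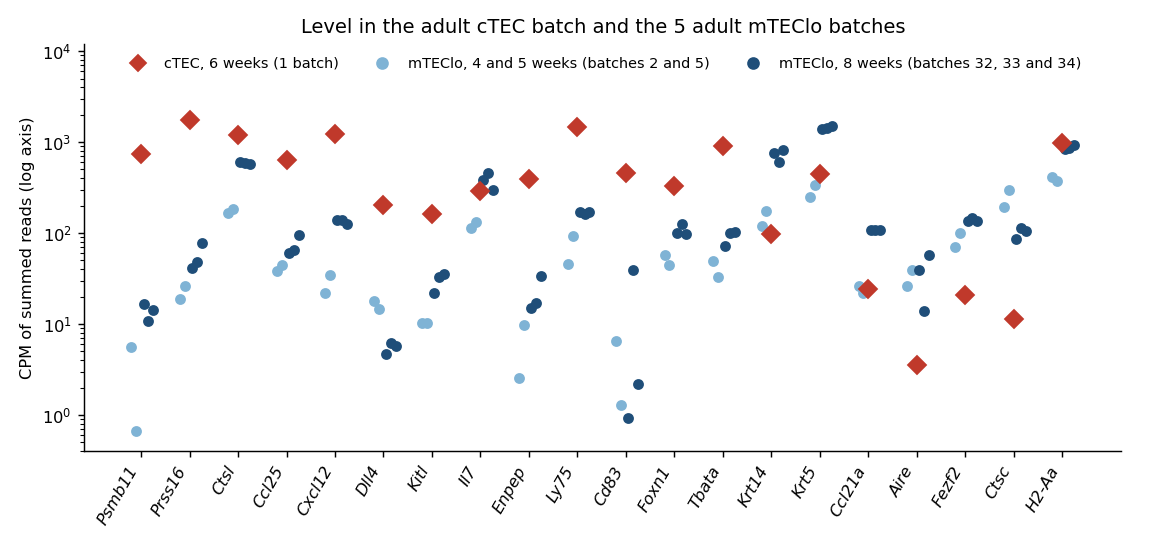
CPM (y axis, log) of 20 genes in the adult cTEC batch (red diamonds) and the 5 adult mTEClo batches (light blue, 4 and 5 weeks; dark blue, 8 weeks). Psmb11, Prss16, Dll4, Cd83 and Tbata lie far above all mTEClo points, Il7 and H2-Aa lie among or next to them, and Aire, Fezf2 and Ctsc lie below all 5.

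Among genes of the cortical surface, the most separated was Cd83, which encodes a surface protein that thymic epithelium needs to support CD4 T cell selection. It had 459.2 CPM in cTEC and 6.52, 1.28, 0.923, 39.0 and 2.18 CPM in mTEClo. The value of batch 33 came from 1 cell, which supplied 94.9% of its Cd83 reads, and 57.1% of cTEC-gate cells but 0.840% of mTEClo cells had at least 100 CPM. Ly75 was 8.45-fold above the highest mTEClo batch. Enpep had 392.8 CPM against 2.51 to 33.4 CPM, but its protein was the antigen that defined both gates, so this shows only that sort and transcript go together.

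Weaker differences were found for the other surface genes. Ackr4, a scavenging receptor for CCL25, CCL19 and CCL21, had 197.5 CPM against 95.2, 87.9, 39.0, 41.8 and 40.1 CPM. Its 2.08-fold lead was lost when the cell with most Ackr4 reads was left out. Slc46a2, a transporter abundant in cTEC, had 610.1 CPM against 121.8 to 413.6 CPM and missed the rule. Some of these loci overlap on the other strand: Ly75 shares exon bases with Gm13571, which had 62.04 CPM in cTEC and a mean of 4.19 CPM in mTEClo, and Dll4 with Gm14207 (15.6 and 1.92 CPM), so part of either count may belong to the partner.

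Of 8 transcription factors of thymic epithelium, 3 were called higher and none lower. Tbata, a regulator of thymic epithelial growth, had 910.5 CPM in cTEC and 49.7, 33.0, 72.6, 99.6 and 102.95 CPM in mTEClo. Pax1, which acts in the pharyngeal pouch that forms the thymus, had 801.4 CPM against 87.4 to 259.7 CPM, and Foxn1 had 325.9 CPM against 44.2 to 126.3 CPM. Their log2 folds were 3.67, 2.08 and 1.93. Foxn1 was thus 2.58-fold above the highest mTEClo batch, a far smaller lead than that of Psmb11. Without the cells of cluster 5 the call of Foxn1 was lost, at a log2 fold of Foxn1 of 1.32. Cluster 5 was the cluster highest in Psmb11, and of the 47 cTEC-gate cells left without it 17 were cTEC-like. In the cTEC-like cells alone, and in these with cluster 5, Foxn1 was still called higher.

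The other 5 factors overlapped between the sorts or missed the rule. Trp63, which maintains epithelial progenitors, had 609.4 CPM in cTEC within the mTEClo range of 219.8 to 892.2 CPM. Pax9 and Hoxa3, both of the pouch program, exceeded the highest mTEClo batch by 1.2002- and 1.47-fold. Eya1, a transcriptional coactivator of that program, had 237.8 CPM in cTEC and 534.2, 541.1, 339.4, 381.6 and 290.6 CPM in mTEClo, below all 5 but by less than 2-fold.

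Medullary genes gave few calls. None of the 11 keratin and adhesion genes of the medullary list and none of the 2 medullary chemokines with at least 5 CPM was called in either direction. In the cTEC-like cells alone, and in these with cluster 5, Cldn3, Cldn4, Plet1 and Ly6a were called lower and the other keratin and adhesion genes were not. Of all genes, 11.03% and 11.4% were called lower in these 2 settings. Krt5, the partner of Krt14 in basal epithelium, had 441.5 CPM in cTEC, between the 252.1 and 334.7 CPM of batches 2 and 5 and the 1397.2 and 1447.6 CPM of batches 32 and 33, with batch 34 higher still. Ccl21a, a CCR7 ligand that attracts positively selected thymocytes, had 24.4 CPM against 26.2, 22.1, 106.85, 107.97 and 108.34 CPM, and reads of its near-identical copies may have been lost or shared. For Krt14, Krt5 and Ccl21a alike, cTEC resembled the 4 and 5 week batches rich in tuft-like cells and lay well below the 8 week batches.

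Leaving out the tuft-like cells of mTEClo changed this for Krt14. It was then called lower in cTEC, with a log2 fold of Krt14 of -2.55. Per cell, at least 100 CPM of Krt14 were found in 28.6% of cTEC-gate cells, in 16.7% and 20.3% of batches 2 and 5, and in 77.9% to 83.1% of batches 32 to 34. Simple keratins were near-level, with 500.7 CPM of Krt8 against 286.3 to 510.6 CPM and 1035.9 CPM of Krt18 against 622.3 to 849.7 CPM. Epcam, used in both gates, had 225.7 CPM in cTEC against 359.4 to 456.1 CPM.

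Genes of mTEC maturation were lower in cTEC in 3 of 5 cases with enough reads. Aire had 3.57 CPM in cTEC and 26.1, 39.5, 39.0, 13.9 and 56.8 CPM in mTEClo, where 82.1% of cells had at least 1 Aire read against 13.0% of cTEC-gate cells. Few cells had much Aire. At least 100 CPM were found in 6.72% of mTEClo (4.35 to 9.84) and in 1 cTEC-gate cell (1.30%, 0.0329 to 7.02). In mTEClo batch 34, 1 cell supplied 53.9% of the Aire reads. Fezf2, a second regulator of tissue-restricted antigens, had 20.8 CPM against 69.4 to 145.8 CPM. Icosl, a costimulatory ligand, had 16.6 CPM against 33.5 to 74.95 CPM, a 2.01-fold gap to the lowest batch. The log2 folds of the 3 genes were -3.30, -2.50 and -1.48, and Fezf2 and Icosl were no longer called once the cells of cluster 5 were left out. The call of Icosl was also lost with TMM scaling and against mTEClo outside the tuft-like clusters. In the cTEC-like cells alone, and in these with cluster 5, Fezf2 and Icosl were still called lower.

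Other costimulatory molecules did not follow them. Cd80 had 11.2 CPM against 15.9 to 26.5 CPM and missed the rule. Cd274, which encodes the inhibitory ligand PD-L1, went the other way, with 471.2 CPM in cTEC against 192.2 to 239.4 CPM, 1.97-fold above the highest. Like Ctsl, Cd274 was called higher with TMM scaling, with the mean of per-cell CPM and after thinning. In the RANK and noncanonical NF-kB list, the lymphotoxin receptor Ltbr was the 1 gene of 8 called, with 185.9 CPM against 62.6 to 81.4 CPM. Tnfrsf11a, which encodes RANK, had 169.8 CPM against 197.1 to 308.9 CPM, and Cd40 had 49.8 CPM against 10.4 to 32.8 CPM. In the cTEC-like cells alone, and in these with cluster 5, Cd80 and Tnfrsf11a were called lower.

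**Figure D4:**
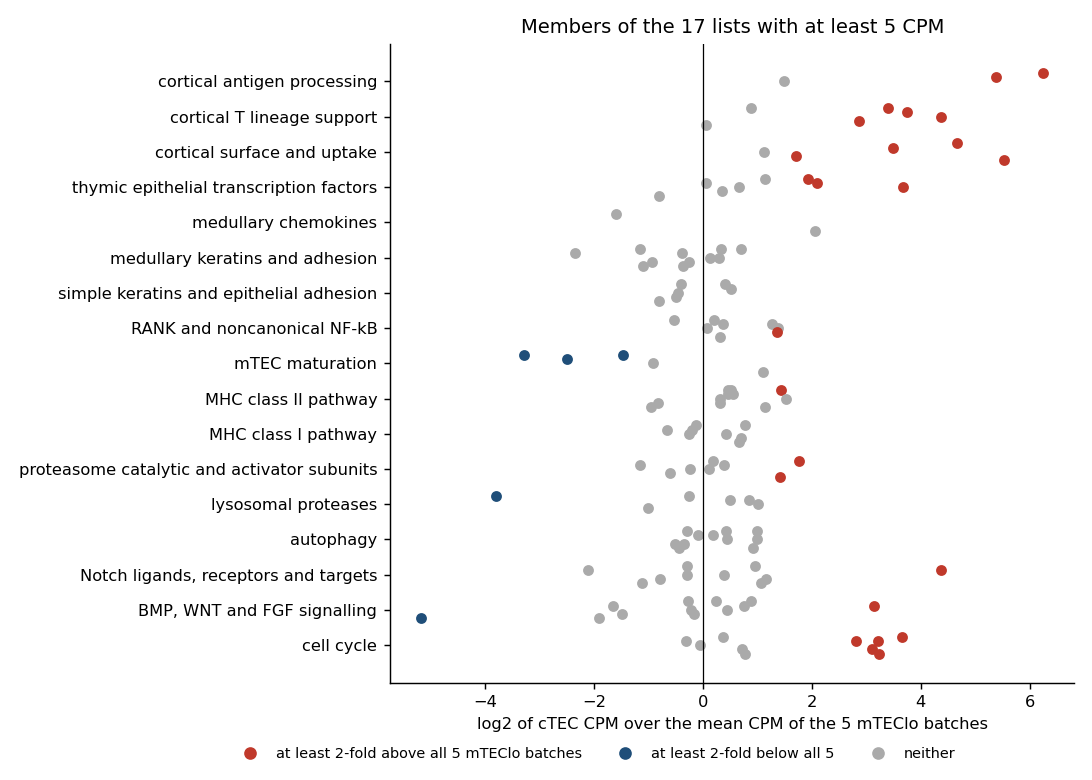
log2 of the cTEC CPM over the mean CPM of the 5 mTEClo batches (x axis) for members of the 17 lists (y axis) with at least 5 CPM. Red points were at least 2-fold above all 5 mTEClo batches, blue points at least 2-fold below all 5, and grey points neither; red is concentrated in the 4 uppermost lists and in the cell cycle.

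Genes of MHC presentation gave 1 call, although MHC class II had been used to gate mTEClo and not cTEC. Of 11 class II pathway genes, H2-DMa alone was called, with 237.1 CPM in cTEC against 55.5 to 118.05 CPM. H2-DMa encodes a chain of the peptide exchanger, and its 2.01-fold lead was lost without its top cell. H2-Aa, a chain of the class II molecule, had 970.95 CPM in cTEC and 409.1, 371.96, 838.2, 862.8 and 922.1 CPM in mTEClo, so that the cTEC level was next to those of the 8 week batches. Ciita, the class II transactivator, had 449.1 CPM against 103.8 to 332.2 CPM. No class I gene of 8 was called, and Tap1, a subunit of the peptide transporter, had 455.8 CPM against 170.1 to 385.1 CPM.

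Proteasome subunits split instead. Psmb10 and Psmb9, the catalytic subunits β2i and β1i of the immunoproteasome, had 204.2 and 299.99 CPM in cTEC against 50.3 to 68.3 and 87.1 to 135.2 CPM, log2 folds of 1.77 and 1.41. Psmb8, the third immunoproteasome subunit β5i, which holds the position that β5t takes in the thymoproteasome, had 40.0 CPM against 51.4 to 73.97 CPM. Psmb5, the constitutive subunit of that position, had 16.0 CPM within 9.71 to 17.6 CPM. Psme1, part of the PA28 activator, had 51.02 CPM against 98.8 to 142.6 CPM, a 1.94-fold gap. Thus β1i and β2i were higher together with β5t, and β5i was not. The calls of Psmb9 and Psmb10 were lost without cluster 5 but kept in the cTEC-like cells alone and in these with cluster 5. Psmb9 overlaps Tap1 on the other strand.

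Of the 7 lysosomal proteases listed beside Ctsl, 6 had at least 5 CPM and 1 was called. Ctsc, which encodes the dipeptidyl peptidase cathepsin C, had 11.4 CPM in cTEC, 194.9 CPM in mTEClo batch 2, a higher level still in batch 5, and 85.4, 114.7 and 105.97 CPM in batches 32 to 34, a log2 fold of -3.81. It was detected in 54.5% of cTEC-gate cells and 95.8% of mTEClo cells. Ctsd had 176.1 CPM against 83.99 to 107.9 CPM, and Ctsb and Ctsz had 181.4 and 40.2 CPM against 184.96 to 237.7 and 53.7 to 111.4 CPM. None of 11 autophagy genes was called, although autophagy feeds class II loading in cTEC, and Sqstm1 and Ulk1 came nearest, 1.73- and 1.78-fold above the highest mTEClo batch.

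Signalling genes other than Dll4 were rarely called. Of the other 9 Notch genes none was, with Jag2 at 640.2 CPM against 160.8 to 383.9 CPM and the receptors Notch1 and Notch3 at 190.4 and 32.4 CPM against 225.5 to 545.6 and 32.7 to 261.9 CPM. Bmp4, a mesenchymal and epithelial growth factor that sustains Foxn1, had 13.2 CPM in cTEC and 4.07, 0.600, 1.43, 0.347 and 1.01 CPM in mTEClo. It was called higher, but not against mTEClo outside the tuft-like clusters, nor in the cTEC-like cells alone, where the log2 fold of Bmp4 was 1.01, nor in the 2 clusters highest in Psmb11. Wnt10b had 9 reads, 0.138 CPM, against 3.09 to 9.03 CPM, and was the 1 gene of the BMP, WNT and FGF list called lower.

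Of 12 cell cycle genes, 5 were called higher. Mki67, a marker of cycling cells, had 74.96 CPM in cTEC and 0.341, 6.04, 11.1, 3.59 and 8.68 CPM in mTEClo. Top2a, the mitotic topoisomerase, had 32.7 CPM against 0.897 to 4.90 CPM, and Ccna2, Cdk1 and Birc5 had 12.9, 9.07 and 5.32 CPM against at most 2.08, 1.43 and 1.896 CPM. These reads came from a minority of cells, as 8 of 77 cTEC-gate cells (10.4%) and 4 mTEClo cells (1.12%) had at least 100 CPM of Mki67, and the call of Birc5 was lost without its top cell. Pcna and Mcm6, used in DNA replication, had 19.2 and 30.4 CPM, inside the mTEClo ranges.

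The 12 genes with the largest fold toward cTEC, at 20 CPM or more, fell into 3 kinds. Rag1, Cd8b1, Rhoh, Dntt and Cd8a are lymphocyte genes, with cTEC levels of 20.5 to 184.1 CPM, and except for Rag1 they were not called without cluster 5. Muc16 and Muc5b are mucins, of which Muc16 had 74.8 CPM and Muc5b 16655 reads, and these came to 51.1% and 88.1% from a single cell each. Muc16 turned to a log2 fold of Muc16 of -0.31 in the cells of the cTEC-like cluster. The remainder, Psmb11, Cyp26b1, Inmt, Myo16 and Nefm, was spread over many cells. Cyp26b1, which degrades retinoic acid, had 173.8 CPM in cTEC and 0.0426, 0, 1.58, 3.41 and 0.245 CPM in mTEClo, with reads in 66.2% and 8.403% of cells. Inmt, a methyltransferase, had 84.7 CPM against 0.0971 to 0.521 CPM. Nefm, a neurofilament chain, had 108.6 CPM against 0.109 to 3.35 CPM, and Myo16, an unconventional myosin, had 57.4 CPM against 0.107 to 0.7503 CPM.

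On the lower side, the 12 leading genes were nearly silent in the cTEC gate. Prrx1, Clca1 and Gpr139 had 0 reads in cTEC, where 3 reads would be 0.0461 CPM. Prrx1, a homeobox factor, had 2.41, 5.54, 51.8, 55.6 and 30.2 CPM in mTEClo, and Gpr139, an orphan receptor, had 9.22 to 42.6 CPM, at least 200.04-fold above that floor in the lowest batch. Dcx had 1 read and Cxcl14 and Dgkk 2 reads in cTEC, against 11.5 to 41.6, 6.48 to 54.1 and 0.850 to 91.3 CPM in mTEClo. Cxcl14 is an epithelial chemokine and Dcx a microtubule protein of migrating neurons.

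Larger read numbers backed the rest of that side. Ncam1, a neural adhesion molecule, had 0.615 CPM in cTEC and 71.1, 59.1, 112.6, 79.1 and 125.3 CPM in mTEClo, where 63.6% of cells carried a read against 3.90%. Lrp1b, a lipoprotein receptor family member, had 0.476 CPM against 35.4 to 141.4 CPM. Cxcl9, an interferon-induced chemokine, had 0.461 CPM against 9.80 to 89.2 CPM. Sez6 and Klk1 varied widely between mTEClo batches, from 0.735 to 84.5 and from 1.24 to 72.9 CPM. All 12 were still called lower without cluster 5, but Sez6 was not called against mTEClo outside the tuft-like clusters, nor Clca1 after thinning to 200000 reads or in the cTEC-like cells alone.

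The same contrast was tested with edgeR on sums per pool, a pool being the cells of a group whose labels give the same age and sex. Adult WT mTEClo gave 3 pools (4, 5 and 8 weeks) and adult WT cTEC gave 1. The spread of the cTEC pool had to be borrowed from the fit over all 13 pools and 8 groups of the series (5 residual degrees of freedom). That spread came from the 3 mTEClo pools and from 4 mTEChi pools, which are not part of the contrast. A gene was called where the Benjamini-Hochberg adjusted p of the quasi-likelihood test was below 0.05 and the fold 2 or more, which held for 17 of 40148 genes on the higher side in cTEC (0.0423%) and 6 on the lower (0.0149%). There were 3 members of the cortical and transcription factor lists among the 17. Prss16 had a log2 fold of 5.74 ± 0.619 (SE, edgeR adjusted p = 0.0308), Ccl25 of 3.64 ± 0.433 (adjusted p = 0.0452) and Tbata of 3.99 ± 0.485 (adjusted p = 0.0472).

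The other cortical members and Aire did not pass. Psmb11 had an edgeR log2 fold of 6.74 ± 1.23 with an adjusted p of 0.112, and Ly75, Cd83, Enpep, Dll4 and Cxcl12 had edgeR adjusted p-values of 0.0597, 0.0608, 0.0830, 0.103 and 0.117. Aire had -3.22 ± 0.486 with an adjusted p of 0.0634. The calls depended on single pools, since no gene was called without the 4 week mTEClo pool, 2 in each direction without the 5 week pool, and 1.13% and 1.02% of genes without the 8 week pool, and none when only the 4 adult pools were fitted.

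In newborns both sorts shared each batch, so that batch could be held constant. The labels give all 5 batches the same age, which makes them 1 pool by the definition above, and whether they hold different mice is not labelled, so the newborn p-values may measure technical spread only. With experimental batch as a block, edgeR called 1.87% of 23821 genes higher in newborn cTEC and 1.58% lower. Psmb11 had 834.9, 837.8, 1216.8, 1015.9 and 844.4 CPM in the cTEC of batches 16 to 20 and 164.4, 441.97, 317.03, 253.9 and 180.1 CPM in the mTEClo of the same batches. Its newborn log2 fold was 2.00 ± 0.218 (adjusted p = 0.00873). Newborn and adult cTEC had like levels of Psmb11, while the lowest newborn mTEClo batch lay far above the highest adult one, at 16.8 CPM, so the gap between the sorts was narrower in newborns.

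Most other cortical genes called higher in adults were also higher in newborn cTEC, as was Ctsl, which had just missed the rule in adults. Prss16, Ccl25, Tbata, Ly75, Cd83 and Ctsl had newborn log2 folds of 1.62 ± 0.206, 2.56 ± 0.207, 2.52 ± 0.201, 1.27 ± 0.136, 3.26 ± 0.301 and 1.41 ± 0.136 (edgeR adjusted p from 0.00534 to 0.0110), all higher in cTEC in 5 of 5 batches. Dll4, Cxcl12, Foxn1 and Pax1 were also higher in 5 of 5 batches, with log2 folds of 0.92, 0.97, 0.71 and 0.57 that stayed under 2-fold. Ackr4 did not follow, with a newborn log2 fold of -0.23 ± 0.187 (edgeR adjusted p = 0.517), higher in 2 batches and lower in 3. Of the 6 genes of T lineage support 2 were called higher in newborns, Ccl25 and Flt3l, and Kitl was not. Of the 5 surface genes 3 were called higher. Flt3l and Cd274, both short of the rule in adults, had newborn log2 folds of 1.45 ± 0.202 and 1.51 ± 0.131 (edgeR adjusted p = 0.0132 and 0.00559). Psmb9 and Psmb10 were called higher as well, at 1.06 ± 0.136 and 1.41 ± 0.184.

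The medullary side gave few newborn calls. Aire, Fezf2 and Ctsc, called lower in adults, were not called in newborns, where they had newborn log2 folds of -0.66 ± 1.02, -1.40 ± 0.960 and -1.22 ± 0.319 (edgeR adjusted p = 0.746, 0.431 and 0.0707). Krt14 had -1.11 ± 0.393 (adjusted p = 0.147) and was lower in 5 of 5 batches. Krt19, a simple keratin that did not separate the adult sorts, was called lower in newborn cTEC at -3.57 ± 0.484 (adjusted p = 0.0125). Krt15, a basal keratin, was the 1 gene of 11 in the medullary keratin and adhesion list called lower, at -3.38 ± 0.466 (edgeR adjusted p = 0.0130). Cyp26b1 had a newborn log2 fold of 5.02 ± 0.289 (edgeR adjusted p = 0.00313). Inmt, Nefm and Myo16 were not called, at 2.77 ± 2.05, 1.31 ± 0.471 and 0.44 ± 0.223 (edgeR adjusted p = 0.469, 0.154 and 0.294). Cxcl14, Ncam1 and Cxcl9 were called lower, at -4.74 ± 0.829, -2.05 ± 0.469 and -1.92 ± 0.375 (edgeR adjusted p = 0.0235, 0.0490 and 0.0314). The rest of the 12 leading genes of that side were not called or not tested. Rag1 had 4.00 ± 0.532 (edgeR adjusted p = 0.0120), so thymocyte genes accompanied the newborn cTEC sort too.

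Of the genes called higher in adults, more were higher than lower in cTEC in all 5 newborn batches, a comparison not made over all genes. The list members Mki67, Birc5 and Bmp4 were among those lower in all 5. Mki67 had a newborn log2 fold of -0.85 ± 0.489 and Bmp4 of -1.76 ± 0.542 (edgeR adjusted p = 0.345 and 0.108), both lower in cTEC in 5 of 5 batches, against 3.66 and 3.14 in adults. Birc5 had -1.05 ± 0.464 against 2.80 in adults (edgeR adjusted p = 0.231). The mucins Muc16 and Muc5b had newborn log2 folds of -4.79 ± 2.40 and -3.59 ± 2.22 (edgeR adjusted p = 0.283 and 0.382), lower in 4 of 5 batches. All 12 cell cycle genes had newborn folds under 0 and none was called. The difference between the ages was not tested. Of the genes called higher in adults, 99.2% were tested in newborns, where 25.5% of these were called higher, against 1.87% of all genes. Another 12 (1.63%) were called lower, near the 1.58% of all genes. Of those called lower in adults, 97.5% were tested, of which 55 (9.87%) were called lower, against 1.58% of all genes, and none higher.

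**Figure D5:**
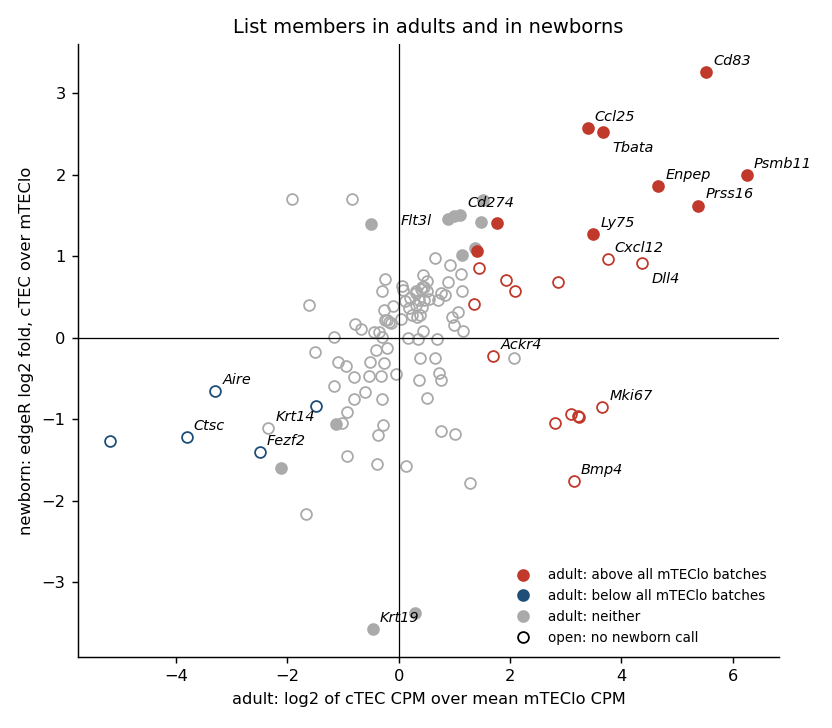
Members of the lists by their adult log2 of cTEC CPM over mean mTEClo CPM (x axis) and their newborn edgeR log2 fold of cTEC over mTEClo (y axis). Filled points were called in newborns, and colours give the adult call; Cd83, Ccl25, Tbata, Psmb11, Enpep, Prss16 and Ly75 are red and filled at the upper right, and Mki67 and Bmp4 are red and open at the lower right.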

How the data were processed

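RamDA-seq libraries of single cells sorted into 96-well plates were analysed from the deposited table of raw counts per gene and cell. Per the labels and the study's methods, the authors trimmed reads where needed, cleaned them with fastp 0.20.0, aligned them with STAR 2.7.3a to mm10, filtered them by mapping quality with SAMtools 1.9, removed duplicates with Picard 2.21.1 and counted them without strand with HTSeq 0.11.2. Only cells past their depth and gene filters were deposited. Some cells had been sequenced in 2 runs that fill 1 column, and how these were combined is not given in the sources used here. A normalized table was not used. No doublet caller was run.

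The members and gene lists were chosen with earlier results of these data known. Counts were summed per experimental batch and scaled to CPM. Beside the lists, 12 genes per direction were named, those of largest fold among the called genes that reached 20 CPM on the higher side, passing over predicted genes, pseudogenes, antigen receptor segments, Xist and genes of chromosome Y. In the closing section, counts of genes are given as percents of the genes tested with the main settings. Folds against 0 reads used a floor of 3 reads. Single values of 2 of the named or listed genes are not reported here.

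Cells were clustered with scanpy 1.11.5 and leidenalg 0.10.2 (2000 variable genes, 20 components, 15 neighbours, resolution 1). Sums per pool (13 pools, 8 groups) and, in newborns, sums per batch with the batch as a block were fitted with edgeR 4.0.16 under R 4.3.3. The fits used the quasi-likelihood test, TMM and Benjamini-Hochberg adjustment. The rule on the range of the mTEClo batches and the edgeR fits were tested on simulated data, and the other steps were not. The newborn pairing comes from the labels, which give both sorts of a batch the same number. The correlations of same-numbered deviations from the group means over 20381 genes were -0.05, 0.06, 0.17, 0.07 and 0.12 for batches 16 to 20. DESeq2 1.42.0 was an alternative. Cells were thinned to 200000 reads for shares with a read. Total counts were 65059240 in the cTEC batch and 34574422 to 59973727 in the mTEClo batches.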

Additional observations from a re-analysis of the deposited data

Results flagged for a closer look

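Of the groups of 5 batches tested for 1 batch standing apart by Dixon's criterion (0.71), 16 (9.47%) had such a batch, and chance alone would give it in about 1 of 20 groups. Among adult mTEClo batches, Cd83 had 38.988 CPM in batch 33 against 0.923 to 6.52 CPM in the others, with 94.9% of those reads in 1 cell. Batch 2 stood apart for Dgkk, at 91.3 CPM against 0.850 to 25.2 CPM, and for Klk1, at 72.9 CPM against 1.24 to 14.1 CPM. Batch 5 stood apart for Pcna, at 29.2 CPM against 15.7 to 18.8 CPM, and for Rhoh, at 0.967 CPM against 0 to 0.0816 CPM. Lck had 13.2 CPM in batch 34 against 7.16 to 8.73 CPM.

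Among newborn mTEClo batches, Rag1 had 33.9 CPM in batch 18 against 1.16 to 2.47 CPM, Flt3l had 33.4 CPM in batch 17 against 14.4 to 17.3 CPM, Eya1 had 363.66 CPM in batch 16 against 250.7 to 264.8 CPM and Cxcl14 had 14.97 CPM in batch 19 against 2.18 to 4.76 CPM. Among newborn cTEC, batch 18 had 117.6 CPM of Rag1 against 31.2 to 54.9 CPM and 1932.1 CPM of Ctsl against 1337.2 to 1480.1 CPM. Aire had 161.3 CPM in the newborn cTEC of batch 19 against 17.1 to 58.6 CPM. The newborn cTEC of batch 16 stood apart for Muc16, at 79.4 CPM against 0.0941 to 2.39 CPM, for Muc5b, at 229.9 CPM against 2.76 to 4.99 CPM, and for Krt19, at 27.2 CPM against 1.41 to 6.58 CPM.

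Bmp4, Mki67 and Birc5 were called higher in adult cTEC, with log2 folds of 3.14, 3.66 and 2.80, and had newborn log2 folds of -1.76, -0.85 and -1.05, being lower in cTEC in all 5 newborn batches. The adult call of Bmp4 was lost against mTEClo outside the tuft-like clusters, in cTEC-like cells and in the 2 clusters highest in Psmb11, while that of Mki67 was kept in these settings. This difference between the ages was not tested.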

How the results depend on the processing

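The rule on the range of the mTEClo batches called 5.22% of genes higher and 4.02% lower. With at least 20 CPM it called 3.09% and 1.99%, and with a 4-fold gap 2.06% and 1.34%. Leaving out single mTEClo batches gave 5.48% to 5.90% higher and 4.27% to 4.83% lower. The share called lower was 11.03% with cTEC-like cells alone and, in 2 settings chosen after seeing the data, 11.4% with the 2 clusters highest in Psmb11 and 2.63% without cluster 5. When the cTEC-gate cell with most reads was left out gene by gene, also chosen after seeing the data, 4.10% were called higher. Of the 23 list members called higher, 18 stayed so without cluster 5. In the cTEC-like cells alone 21 stayed so, and also 21 in the 2 clusters highest in Psmb11, though several of these genes named the cTEC-like cluster.

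Among list members and named genes that were called, signs turned in 4 cases, whose cause was not tested. The log2 fold of Ptgs1 was 1.74 against mTEClo outside the tuft-like clusters, the log2 fold of Muc16 was -0.31 in cTEC-like cells and -0.52 in the 2 clusters highest in Psmb11, and the log2 fold of Lck was -0.15 without cluster 5. Tuft genes not called with the main settings turned as well. Avil, Trpm5 and Sh2d6 were called higher against mTEClo outside the tuft-like clusters, a setting that kept all cTEC-gate cells, 1 of them tuft-like. At least 100 CPM of Trpm5 were found in 2 of the 77 cTEC-gate cells. Since tuft-like cells left the mTEClo side only, this setting cannot show tuft genes to be higher in cTEC. There the log2 fold of Avil was 1.78 against -3.91 with the main settings, the log2 fold of Trpm5 was 2.96 against -3.61 and the log2 fold of Sh2d6 was 3.27 against -3.28.

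The pool test of adults (0.0423% higher, 0.0149% lower) was unstable. DESeq2 called 2.04% and 3.19%, edgeR with DESeq2 size factors 0.144% and 0.0299%, edgeR without the filter 0.154% and 0.0324%, batches as units 1.57% and 0.217%, and the 4 adult pools alone 0 and 0, where unadjusted p was under 0.05 for 4.97% and 4.19% of genes. Leaving out single mTEClo pools gave 0 to 1.13% higher and 0 to 1.02% lower. Without the 4 week pool edgeR called 0, with an unadjusted p under 0.05 for 4.45% and 3.95%. In newborns (1.87% higher, 1.58% lower) DESeq2 called 2.91% and 4.79%, and without the replicate block edgeR called 1.96% and 2.43%. Leaving out single newborn batches gave 0.730% to 2.01% and 0.357% to 2.31%, the fewest without batch 18. At a clustering resolution of 0.5 no cluster was cTEC-like, a share of 0% against 22.1%. With 1 adult cTEC batch, its own spread could not be measured.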
